A study of Mus musculus with 4 samples.

Results

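The cells described are thymic invariant natural killer T (iNKT) cells that carried the transcripts of late G2 and mitosis, 1007 of 19647 cells kept in the series. A cell was taken as a G2/M cell when at least 4 of 8 genes, Ccnb2, Cenpa, Birc5, Cdc20, Ube2c, Cdca8, Ccnb1 and Nusap1, had 1 or more unique molecular identifiers (UMIs, each the tag of 1 captured transcript). There were 501 and 221 G2/M cells in replicates 1 and 2 of C57BL/6, and 90 and 195 in Hivep3-/- replicates 1 and 2. The levels of these 8 genes chose the cells, so they are given as a description and support nothing.

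Sorting with a PBS57-loaded CD1d tetramer, which binds iNKT receptors, gave the cells, from the thymus of untreated C57BL/6 wild-type mice and of untreated Hivep3-/- mice, which lack the zinc finger protein HIVEP3 throughout the body and had been backcrossed to C57BL/6. All mice were 8 to 9 weeks old by the labels, and each of the 4 libraries came from 1 mouse, 2 per genotype. For C57BL/6 the sort put together CD44low and CD44high cells in equal numbers. For Hivep3-/- the study's text names a similar sort without giving the ratio. Shares of cells depend on that ratio. Single-cell libraries of transcript 5' ends were read out by droplet sequencing to ask how iNKT cell development differs without Hivep3.

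iNKT cells are T cells with a nearly fixed receptor for lipids on CD1d. They divide strongly after positive selection, between the earliest precursors (stage 0) and the effector subsets iNKT1, iNKT2 and iNKT17. In G2 the cyclin-dependent kinase CDK1 is switched on by B-type and A-type cyclins; in mitosis the kinetochore ties chromosomes to the spindle, and CDC20 then activates the anaphase-promoting complex, which marks cyclin B and securin for destruction with the help of the ubiquitin enzyme UBE2C. Many genes of this program share promoter elements, CCAAT boxes and the cell cycle genes homology region (CHR). Through the CHR they are held off early in the cycle.

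The stretches before the start sites of 4 of the genes are shown because these genes define the cells. Capitals mark CHR hexamers (TTTGAA or TTCGAA, either strand) and CCAAT boxes (CCAAT, either strand). They are 250 bases each of GRCm38.p6 from RefSeq, read 5' to 3' along the gene, at chr9:70421555-70421804 (minus strand, Ccnb2), chr4:118437344-118437593 (minus, Cdc20), chr2:164769679-164769928 (plus, Ube2c) and chr13:100786487-100786736 (minus, Ccnb1).
Ccnb2: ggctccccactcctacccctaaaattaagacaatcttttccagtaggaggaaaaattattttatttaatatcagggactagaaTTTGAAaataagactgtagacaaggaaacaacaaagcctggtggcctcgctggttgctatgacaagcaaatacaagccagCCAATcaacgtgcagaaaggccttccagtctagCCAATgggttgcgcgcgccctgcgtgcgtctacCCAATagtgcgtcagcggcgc
Cdc20: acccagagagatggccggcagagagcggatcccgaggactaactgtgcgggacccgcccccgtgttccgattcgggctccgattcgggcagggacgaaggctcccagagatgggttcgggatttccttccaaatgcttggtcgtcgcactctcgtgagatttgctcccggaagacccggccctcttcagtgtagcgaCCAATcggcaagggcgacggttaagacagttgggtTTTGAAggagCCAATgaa
Ube2c: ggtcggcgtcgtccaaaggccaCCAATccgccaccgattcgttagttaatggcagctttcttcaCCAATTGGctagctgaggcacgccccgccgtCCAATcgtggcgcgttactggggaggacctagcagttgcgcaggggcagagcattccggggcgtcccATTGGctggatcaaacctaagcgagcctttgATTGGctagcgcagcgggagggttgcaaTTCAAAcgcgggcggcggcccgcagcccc
Ccnb1: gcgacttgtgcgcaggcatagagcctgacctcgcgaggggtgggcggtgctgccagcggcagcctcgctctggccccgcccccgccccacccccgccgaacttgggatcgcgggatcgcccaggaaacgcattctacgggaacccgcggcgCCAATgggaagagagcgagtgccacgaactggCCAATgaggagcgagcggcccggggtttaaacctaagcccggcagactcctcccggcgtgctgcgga
A CHR hexamer lay 18 bases before the start site of Cdc20, the activator of the anaphase-promoting complex, and 29 bases before that of Ube2c. Ccnb2 had one 167 bases before the start site, 3 CCAAT boxes closer to it and a second hexamer that begins 4 bases after the start site, beyond the stretch shown, while Ccnb1 had 2 CCAAT boxes and no hexamer. Over windows from 250 bases before to 50 bases after the start site, 5 of the 8 promoters held a CHR hexamer and 6 held 2 or more CCAAT boxes, against 19.2% and 11.7% of all 32851 promoters of that length. The hexamer stood in 40 of 55 promoters found for 69 other genes of mitosis named below (72.7%), in 0 of 6 promoters of early S phase genes, and in 0 of 5 promoters each of iNKT2 and iNKT1 markers. By contrast, 2 or more CCAAT boxes were not particular to genes of mitosis. They stood in 26 of the 55 promoters (47.3%), in 4 of 6 of early S phase genes (66.7%) and in 0 of 5 each of iNKT2 and iNKT1 markers. These matches are letters in a window, and no binding was measured.

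In every library the 8 genes stood far above the other cells. Ccnb2, a mitotic cyclin, had 297, 299, 367 and 302 UMIs per 1000000 UMIs (CPM, here the sum over the cells divided by their total) in the G2/M cells of C57BL/6 replicates 1 and 2 and Hivep3-/- replicates 1 and 2. In all other cells it had 11.1, 4.12, 2.42 and 2.53 CPM. Birc5, the survivin subunit of the chromosomal passenger complex, had 377, 426, 404 and 473 CPM against 9.28, 4.89, 2.12 and 4.96 CPM. Cenpa, the histone of the centromere, had the smallest fold of the 8, from 15.1 to 19.9 in the 4 libraries, and Ube2c had from 51.0 to 222. Cdc20, the chromosomal passenger gene Cdca8, Ccnb1 and the spindle gene Nusap1 had folds between 23.2 and 84.3. At the threshold, 113, 43, 26 and 25 cells had exactly 4 of the genes, which was 22.6%, 19.5%, 28.9% and 12.8% of the G2/M cells, with median depths of 11945, 14376, 11749 and 13947 UMIs, and 151, 37, 27 and 46 cells had 3 and stayed out, with 11776, 14274, 10904 and 14136.5 UMIs.

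**Figure D1:**
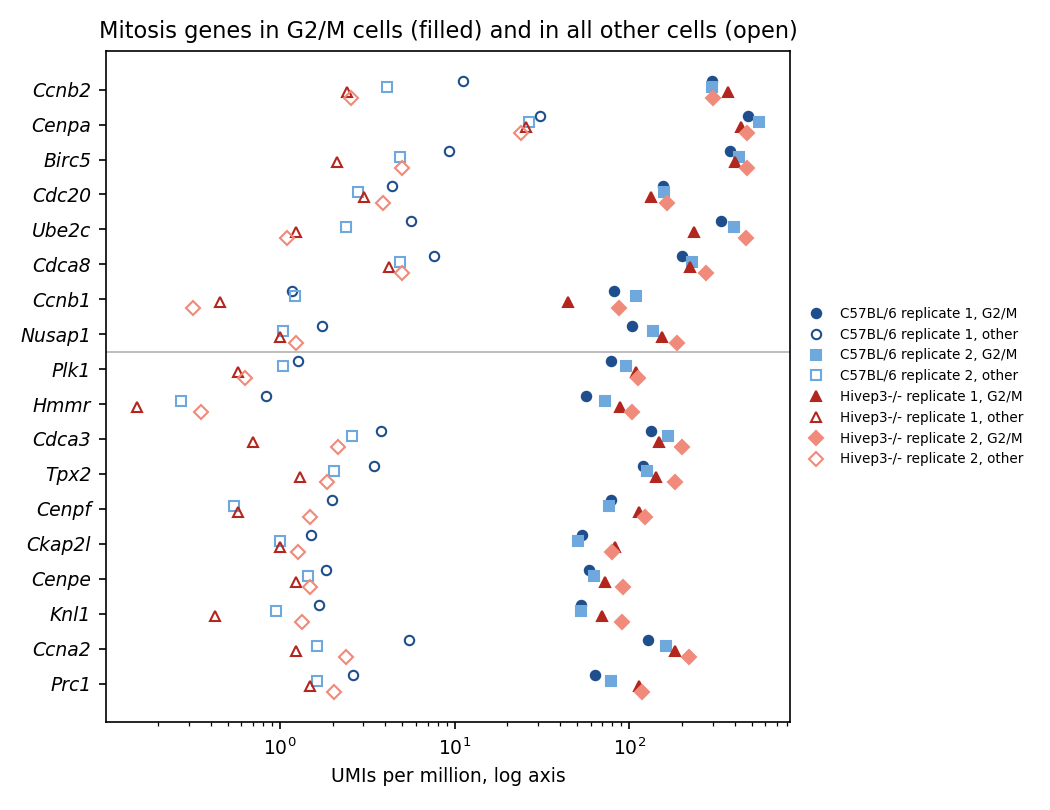
UMIs per 1000000 UMIs (log axis) of the 8 genes that chose the cells (top) and of the 10 other genes with the highest fold among those with at least 50 CPM in G2/M cells of every library, in G2/M cells (filled) and all other cells (open), 1 symbol per library. The filled symbols stand between 44.5 and 553, those of all other cells between 0.151 and 30.6, and no gene has overlapping symbols.

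Other genes with high folds were those of the mitotic machine. Among genes with at least 50 CPM in the G2/M cells of every library, the 10 with the highest fold were the kinase gene Plk1, the spindle genes Hmmr, Tpx2 and Prc1, the kinetochore genes Cenpf, Cenpe and Knl1, Cdca3, Ckap2l and the cyclin gene Ccna2. Plk1, whose product drives entry into and exit from mitosis, had 78.1, 96.0, 108 and 112 CPM in G2/M cells and 1.27, 1.04, 0.575 and 0.633 CPM in all others. More than 2-fold higher in all 4 libraries were 21 of 21 spindle motor and microtubule genes, 14 of 15 kinetochore and checkpoint genes, 12 of 13 mitotic kinases and cyclins, 11 of 12 condensin and mitotic chromatin genes, 12 of 12 replicative histone genes and 4 of 8 genes of the anaphase-promoting complex and its substrates; the same held for 272 of all 7176 genes averaging 10 CPM or more. Of 8 early S phase genes, 3 passed that fold. At the other end, 123 of the 7176 genes were more than 2-fold lower in all 4 libraries. The same held for 5 of 8 iNKT17 markers and 3 of 8 iNKT1 markers. Ranked by smallest fall over libraries, Dusp1 and Btg1 came first among genes with at least 50 CPM in other cells of every library. The chemokine gene Xcl1 and the natural killer receptor gene Klrb1c came next. Klrb1c had 13.5, 22.0, 60.5 and 11.6 CPM in G2/M cells against 155, 269.9, 215 and 169 CPM in all others, and Xcl1 had 22.7, 18.7, 132 and 46.9 CPM against 208, 278, 478 and 519 CPM. Both mark iNKT1 cells and were chosen after their values were seen. Since the cells were selected on expression, these contrasts were not tested.

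G2/M cells were T cells by their markers. With every cell thinned to 5000 UMIs, which left 484, 219, 87 and 193 G2/M cells, Cd3e was found in 97.1%, 97.7%, 97.7% and 98.4% of them and Cd3g in 98.8%, 98.6%, 100% and 97.9%. The Vβ segments typical of iNKT receptors, Trbv13-2, Trbv29 and Trbv1, were found in 45.9% to 53.4%, 24.7% to 28.7% and 9.13% to 14.3%. The invariant segments Trav11 and Traj18 were sparse, in 0.620% to 10.3% and 2.89% to 10.3%. The B cell genes Cd79a, Ms4a1, Ebf1, Iglc2 and H2-Aa were in 0 of the thinned cells in all 4 libraries, and the summed level of the 8 B cell genes, 36.4 and 42.1 CPM in C57BL/6 and 88.9 and 56.0 CPM in Hivep3-/-, was mostly Ighm. Of 8 genes of double positive thymocytes, Rag1, Rag2 and Ptcra each were in at most 1.04% of cells. The summed level of the 8 was 63.6, 14.9, 50.7 and 57.4 CPM, against 20.4, 20.5, 31.0 and 33.6 CPM in all other cells. It was thus higher in G2/M cells in every library except C57BL/6 replicate 2. Whether double positive thymocytes are among the G2/M cells was not tested. Of 8 myeloid genes, Cst3 had nearly all UMIs and 6 to 7 had none, and the 6 erythroid genes had 0 to 2 UMIs per library.

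The libraries differed in depth and in sex-linked transcripts. G2/M cells held a median of 12724, 15546, 13106 and 14451 UMIs against 4308.5, 5134.5, 6779.5 and 6342 in other cells, and summed to 6353925, 3416481, 1124509 and 2769985 UMIs. No barcode of a G2/M cell occurred among the G2/M cells of another library. Xist, transcribed from the inactive X chromosome, had 2328 UMIs in the G2/M cells of C57BL/6 replicate 1, with 1, 0 and 0 elsewhere, and the Y-linked Ddx3y had 0 in that library and 103, 31 and 129 in the others. The C57BL/6 libraries thus differ in sex by these transcripts, while the study's text names female C57BL/6 mice for this sequencing and both sexes in its methods. Where leaving out C57BL/6 replicate 1 changes a named call between genotypes or against early S cells, this is stated. It is not stated for single genes against all other cells. Doublet scores in the top 5% of a library fell on 27, 4, 6 and 15 G2/M cells.

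Fewer cells were in G2/M in the Hivep3-/- libraries. They made up 6.93% and 6.05% of kept C57BL/6 cells and 1.96% and 4.68% of Hivep3-/- cells (95% exact binomial intervals, which cover counting error only, of 6.35% to 7.54%, 5.30% to 6.88%, 1.58% to 2.40% and 4.06% to 5.37%). The means were 6.49% ± 0.619 and 3.32% ± 1.92 (SD, n = 2), and the genotypes did not overlap. The two-sided exact permutation test gave p = 0.333, the smallest that 2 libraries against 2 allow. Hivep3-/- replicate 1 was lowest by far, and its distance from replicate 2 was nearly as large as the difference between the genotype means.

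Early S cells did not follow the same order among the cells as chosen. These were cells outside G2/M with at least 4 of 8 genes of replication (Mcm3, Mcm5, Mcm6, Gins2, Uhrf1, Dtl, Ccne2 and Cdc6), and they made up 9.18%, 7.01%, 6.85% and 9.50% of kept cells. The mean was 8.10% ± 1.54 in C57BL/6 and 8.18% ± 1.88 in Hivep3-/- with overlapping libraries (exact permutation p = 1, n = 2). Among dividing cells, G2/M plus early S, the G2/M share was 43.0% and 46.3% in C57BL/6 and 22.2% and 33.0% in Hivep3-/-, with means of 44.7% ± 2.35 and 27.6% ± 7.62 and no overlap (exact permutation p = 0.333, n = 2). Many G2/M cells still had early S genes: 42.7%, 49.8%, 52.2% and 57.4% of them carried at least 4 of the 8.

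The limit of fewer than 4100 genes per cell, set by the study, removed many of these large cells and did so unevenly. Without it 557, 371, 209 and 329 cells had at least 4 of the 8 genes, so the limit had taken away 10.1%, 40.4%, 56.9% and 40.7% of them. The shares of cells in G2/M were then 7.62%, 9.62%, 4.31% and 7.57%, with C57BL/6 replicate 1 and Hivep3-/- replicate 2 at nearly the same value and means of 8.62% ± 1.41 and 5.94% ± 2.31. The genotype means then differed by -2.68 percentage points (Hivep3-/- minus C57BL/6) in place of -3.17. Since C57BL/6 cells were shallower, cells were also thinned to 4000 UMIs. Cells under 4000 UMIs were left out, 3007 of 7231, 902 of 3651, 518 of 4598 and 517 of 4167 with the limit. C57BL/6 thus lost a larger part of its cells, and these shares are of the deeper cells only. They were 6.68%, 5.20%, 1.18% and 3.12% with the limit and 7.21%, 7.68%, 2.54% and 5.59% without it. On the share among dividing cells the genotypes overlapped with no limit and thinning, at 45.9%, 56.9%, 32.9% and 51.2%. In that setting early S cells were 8.48%, 5.82%, 5.17% and 5.33%, without overlap between genotypes (exact permutation p = 0.333, n = 2). The early S means were 5.88% in C57BL/6 and 4.06% in Hivep3-/- with the limit and thinning. With no limit alone they were 8.68% and 9.44%, and the libraries overlapped in both settings.

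**Figure D2:**
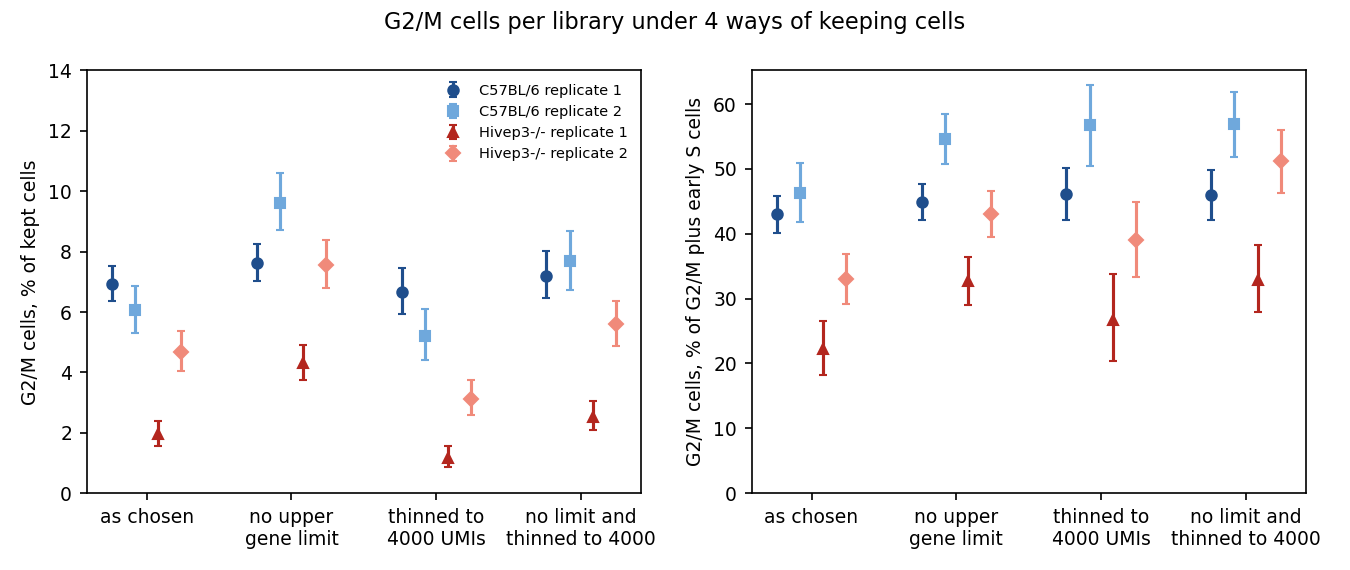
Share of kept cells in G2/M (left) and share of G2/M among dividing cells (right), in percent, per library, with 95% exact binomial intervals, for the cells as chosen and for 3 other ways of keeping them. On the left both Hivep3-/- libraries stand below both C57BL/6 libraries in each setting, with 7.62% and 7.57% the closest pair; on the right the genotypes overlap in the last setting.

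The dividing cells of the genotypes carried different lineage markers. After thinning, 66.9% and 67.1% of C57BL/6 G2/M cells had at least 3 of 8 iNKT2 markers (Zbtb16, Gata3, Cd4, Il4, Icos, Izumo1r, Il6ra and Il17rb), against 24.1% and 21.8% of Hivep3-/- G2/M cells. At least 3 of 8 stage 0 markers (Cd24a, Itm2a, Cldn10, Egr2, Sox4, Lef1, Ikzf2 and Id3) were in 27.5% and 21.5% against 47.1% and 62.2%. For the iNKT1 markers (Tbx21, Il2rb, Nkg7, Xcl1, Klrd1, Klrb1c, Ms4a4b and Ccl5) the shares were 13.2% and 15.1% against 48.3% and 25.4%. Before thinning they were 91.6%, 92.3%, 43.3% and 53.8% for iNKT2, 57.29%, 57.01%, 64.44% and 86.15% for stage 0, and 27.1%, 33.9%, 57.8% and 45.1% for iNKT1 markers. iNKT17 markers were sparse, with at least 3 of 8 in 0.413% and 1.83% of C57BL/6 and in 0 of 87 and 0 of 193 Hivep3-/- G2/M cells, which allows shares of up to 3.45% and 1.55% of cells with 3 such markers detected at this thinned depth, not of cells expressing them. Before thinning the iNKT17 shares were 1.40%, 2.26%, 0% and 1.03%. These lists hold genes that themselves differ between the genotypes, so the shares are ranges of marker content and not cell types, and how much free RNA enters them was not measured.

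The lists overlapped in single cells. iNKT2 markers alone, with no other list at 3, were in 42.1% and 41.1% of C57BL/6 but 5.75% and 6.22% of Hivep3-/- G2/M cells. Stage 0 markers alone were in 7.23% and 2.28% against 23.0% and 38.3%, and iNKT1 markers alone in 4.96% and 6.85% against 37.9% and 16.1%. Both iNKT2 and stage 0 markers were in 19.2%, 18.7%, 16.1% and 15.5%, a share that varied little among the libraries. No list reached 3 markers in 19.4%, 21.9%, 6.90% and 15.5% of cells. The Hivep3-/- libraries were unlike each other: replicate 1, with 87 thinned G2/M cells, leaned to iNKT1 markers and replicate 2 to stage 0 markers.

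**Figure D3:**
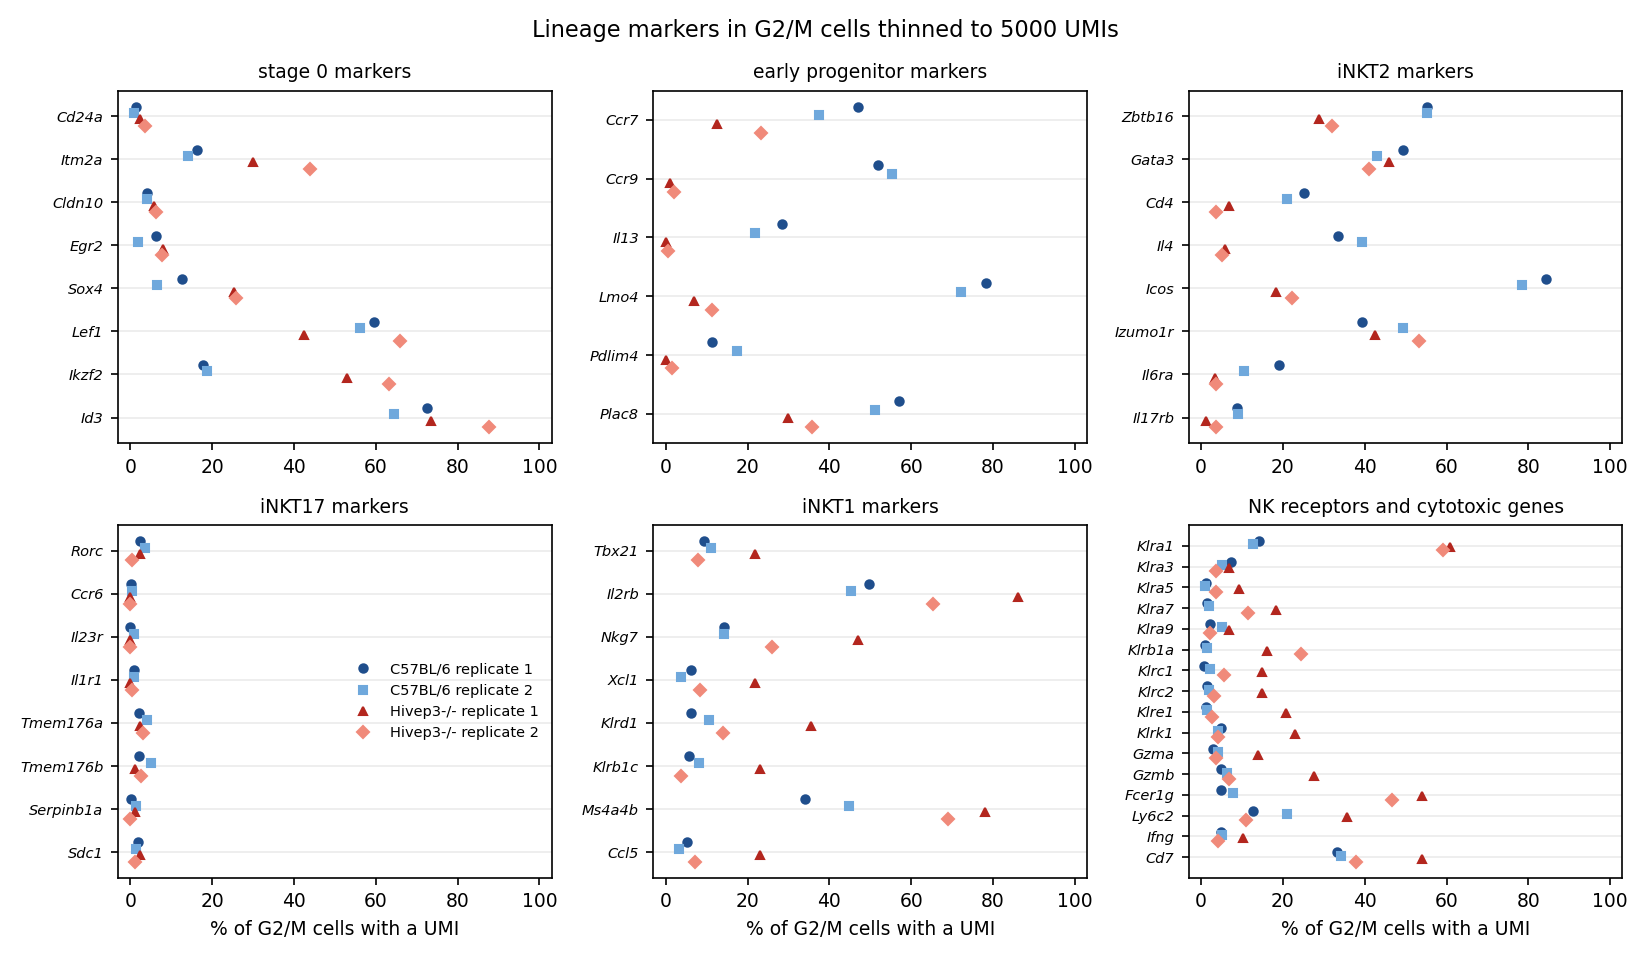
Percent of G2/M cells with a UMI of each marker after thinning every cell to 5000 UMIs, 1 symbol per library, in 6 gene lists. Icos, Lmo4 and Ccr9 stand far to the right in C57BL/6, Ikzf2, Fcer1g and Klra1 far to the right in Hivep3-/-, and all iNKT17 markers stay below 6%; in several cytotoxic genes Hivep3-/- replicate 1 stands alone.

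Genes were then compared between genotypes within the G2/M cells, on UMIs summed per library, with the two-sided quasi-likelihood test of edgeR and Benjamini-Hochberg adjustment over all genes tested, with 2 libraries per genotype. Of 9408 genes tested, 269 passed an adjusted p of 0.05 (2.86%), 134 higher and 135 lower in Hivep3-/-. This share is the background for the counts below. The lists were chosen with earlier results of these data known, so their counts are descriptions. Levels from here on are CPM on library sizes scaled by the trimmed mean of M-values (TMM), differences are log2 of Hivep3-/- over C57BL/6, SE is the fit's standard error, and adjusted p-values come from this edgeR test. Without C57BL/6 replicate 1 the count was 143, of which 127 were among the 269, and with no upper gene limit it was 703, of which 262 were. In sums over cells, more cells with a transcript and more transcript per cell cannot be told apart.

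Hivep3 itself, on chromosome 4 at 119733784 to 120138045 (GRCm38), had 29.5 and 38.6 CPM in C57BL/6 and 96.3 and 63.0 CPM in Hivep3-/- G2/M cells, higher in both libraries labelled as lacking the gene. The difference was 1.21 (SE 0.245, adjusted p 0.0458). It lost its call without C57BL/6 replicate 1 (1.02, adjusted p 0.170), without Hivep3-/- replicate 1 (0.91, adjusted p 0.0976), with at least 5 of the 8 genes (1.05, adjusted p 0.0543) or without G2/M cells with 4 or more early S genes (0.86, adjusted p 0.186). A count of 5' ends over the gene does not tell a disrupted transcript from an intact one, and the sources used here do not say which part is deleted, so these values do not check the labels.

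The listed genes of mitosis were not called between the genotypes, though most of their differences were above 0. None of 69 genes in the 5 mitosis lists (kinases and cyclins, kinetochore and checkpoint, spindle, anaphase-promoting complex, condensins and mitotic chromatin) passed the edgeR test, against 2.86% of all genes. Their differences ran from -0.22 to 0.84 with a median of 0.34, and 61 were above 0, while the median of all genes was 0.03. With no low-count filter, which tests more genes, 6 of the 69 passed, against 6.05% of all genes, and DESeq2 called 0. An unadjusted edgeR p under 0.05 was found for 26 of the 69, against 17.5% of all genes tested. Cdk1, the central kinase of mitosis, had 132 and 164 CPM in C57BL/6 and 136 and 216 CPM in Hivep3-/-, and Plk1 had 81.3 and 102 against 102 and 109 CPM. Cdc25b, the phosphatase that activates CDK1, came nearest to the threshold in these lists with 80.7 and 101 CPM against 142 and 163 CPM, a difference of 0.76 (SE 0.171, adjusted p 0.0598). Mki67, which encodes the Ki-67 proliferation marker, had 167 and 199 against 269 and 264 CPM (0.54, SE 0.149, adjusted p 0.108). Top2a, which untangles chromosomes, had 289 and 370.0 against 442 and 542 CPM (0.58, SE 0.172, adjusted p 0.132). In these 3 genes both Hivep3-/- libraries stood above both C57BL/6 libraries, which held for 49.4% of all genes tested in either direction, and none passed. The abundant chromatin genes Hmgb2 and H2afz differed by -0.14 and -0.06.

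The listed replication genes were likewise not called by edgeR. Of 12 replicative histone genes none passed the edgeR test (3 with an unadjusted p under 0.05 and 1 called by DESeq2, beside 17.5% of all genes at that unadjusted p), with a median of 0.05 and a range from -0.48 to 0.93. Hist1h2ap, the one that DESeq2 called and the most abundant of them, had 3180.3 and 4593 CPM in C57BL/6 and 6369.7 and 8457 CPM in Hivep3-/- (0.93, SE 0.204, adjusted p 0.0556); histone genes are near-identical copies, so single members are uncertain. The 8 early S phase genes all stood above 0, from 0.15 to 0.64, and none passed (3 with an unadjusted p under 0.05 and 0 called by DESeq2, where 17.5% of all genes had such an unadjusted p). Of 15 G1 cyclins and cell cycle inhibitors tested, Cdkn2a alone passed, whose products restrain CDK4 and stabilise p53. It had 22.0 and 28.9 CPM in C57BL/6 and 9.21 and 5.63 CPM in Hivep3-/- (-1.87, SE 0.334, adjusted p 0.0293). Its call was lost without C57BL/6 replicate 2 (-1.66, adjusted p 0.0535), without Hivep3-/- replicate 2 (-1.48, adjusted p 0.107) and with at least 5 of the 8 genes (-1.56, adjusted p 0.0714).

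**Figure D4:**
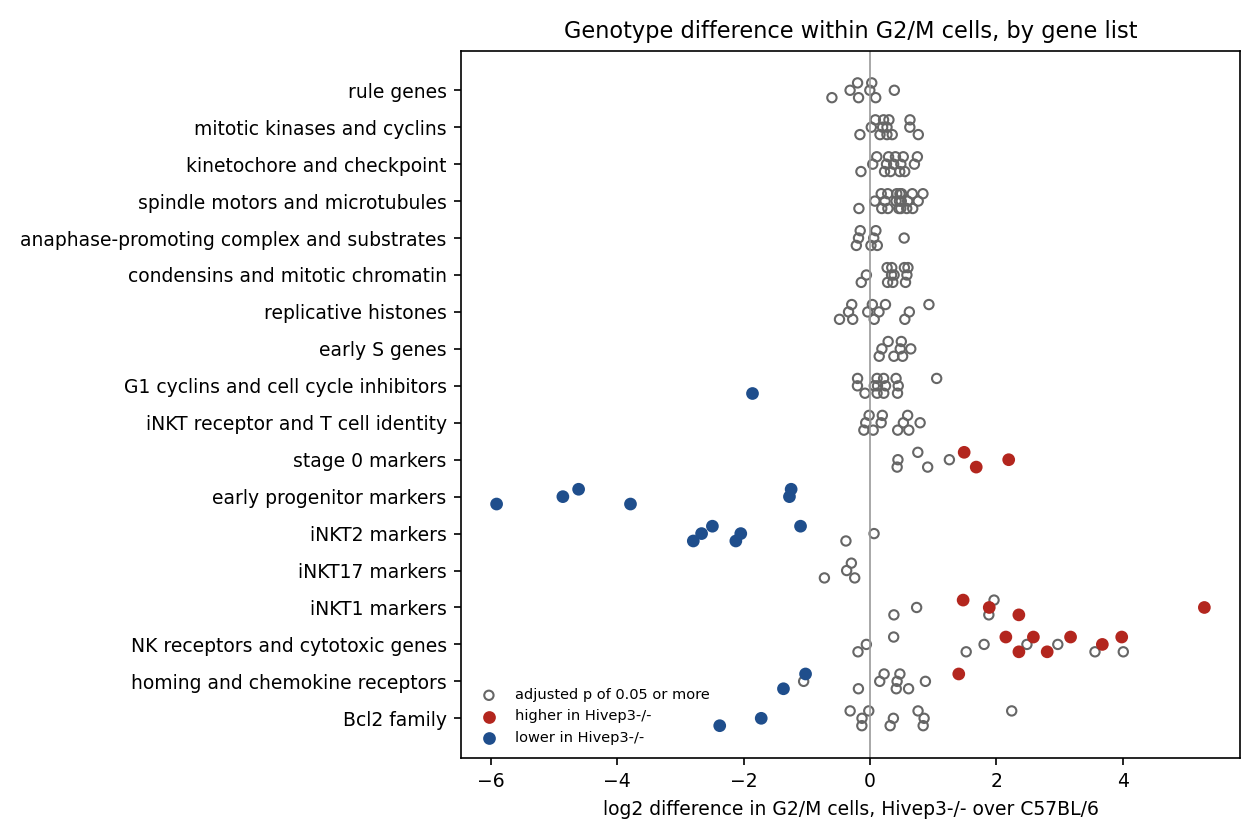
Log2 difference of Hivep3-/- over C57BL/6 in G2/M cells for every tested gene of the lists; filled points passed an adjusted p of 0.05 and open points did not. The mitosis lists lie between -0.22 and 0.84 with no filled point, the 6 early progenitor genes are all filled on the lower side, and the 7 filled natural killer receptor genes are on the higher side.

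Genes of early CD44low progenitors and of iNKT2 cells were lower in Hivep3-/- G2/M cells. All 6 early progenitor genes passed, with a median of -4.20, and 6 of 8 iNKT2 markers passed, with a median of -2.08. Lower calls were 1.43% of all genes. From these libraries the study had reported Ccr9, Ccr7, Plac8, Il13, Icos, Cd4, Il4 and Zbtb16 as lower in Hivep3-/- cells. These list counts are therefore descriptions and not independent evidence. The study also found Plac8 raised in its non-cycling iNKT2 cells, so it is not particular to early progenitors. Ccr9, a chemokine receptor of thymocytes and gut-homing T cells on chromosome 9 at 123678439 to 123784330, had 221 and 253 CPM in C57BL/6 and 2.51 and 4.57 CPM (3 and 13 UMIs) in Hivep3-/-. This was the largest fall of the named genes (-5.91, SE 0.254, adjusted p 5.63e-05). Pdlim4, a PDZ and LIM domain gene, had 36.6 and 52.9 against 1.68 and 1.41 CPM (-4.86, SE 0.409, adjusted p 0.00162), from 2 and 4 UMIs in Hivep3-/-. Il13, a type 2 cytokine gene, had 193 and 85.2 against 0.838 and 8.09 CPM (-4.61, SE 0.581, adjusted p 0.00894), from 1 and 23 UMIs in Hivep3-/-. In both Hivep3-/- libraries these 3 genes were thus far below either C57BL/6 library. Lmo4, a LIM-only transcriptional cofactor, had 609 and 571 against 40.2 and 44.3 CPM (-3.79, SE 0.159, adjusted p 5.63e-05). Ccr7 and Plac8 fell less (-1.25, adjusted p 0.0185 and -1.27, adjusted p 0.00570), and Ccr7 lost its call where G2/M cells with 4 or more early S genes were left out (-0.77, adjusted p 0.107).

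Of the iNKT2 markers, Icos, the gene of a costimulatory receptor, had 604 and 537 CPM in C57BL/6 and 82.1 and 96.4 CPM in Hivep3-/- (-2.67, SE 0.159, adjusted p 0.000371), and it was found in 84.3%, 78.5%, 18.4% and 22.3% of thinned G2/M cells. Il4, the type 2 cytokine gene that defines iNKT2 cells, had 122 and 125 against 16.8 and 18.3 CPM (-2.80, SE 0.178, adjusted p 0.000408). The coreceptor gene Cd4 and the interleukin receptor genes Il6ra and Il17rb differed by -2.12, -2.49 and -2.05, and Il17rb lost its call without Hivep3-/- replicate 1 (-1.75, adjusted p 0.0548), with at least 5 of the 8 genes (adjusted p 0.0606) and without G2/M cells with 4 or more early S genes (adjusted p 0.0669). Zbtb16, which encodes PLZF, the master regulator of innate T cells, had 220.2 and 176 against 84.6 and 99.2 CPM (-1.10, SE 0.175, adjusted p 0.0204), and lost its call without C57BL/6 replicate 1 (-0.93, adjusted p 0.0867) and without G2/M cells with 4 or more early S genes (-0.79, adjusted p 0.0797). It was a smaller difference than in Icos or Il4, without overlap. The markers that did not pass were Gata3, with 159.8 and 137 against 125 and 105 CPM, and Izumo1r, the gene of folate receptor 4, with 158 and 256 against 170.0 and 257 CPM. Of 4 iNKT17 markers tested none passed (0 with an unadjusted p under 0.05 and 0 called by DESeq2), and all had under 15 CPM in every library.

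Part of the stage 0 and iNKT1 markers were higher in Hivep3-/- G2/M cells. Of 8 stage 0 markers 3 passed, all higher, with a median of 1.08 over the list; higher calls were 1.42% of all genes. Ikzf2, which encodes the transcription factor Helios, had 56.2 and 56.6 CPM in C57BL/6 and 262 and 255 CPM in Hivep3-/- (2.19, SE 0.146, adjusted p 0.000485). The libraries of a genotype were close together here. Itm2a, a membrane protein gene of recently selected thymocytes, had 54.8 and 46.0 against 119 and 201 CPM (1.68, SE 0.248, adjusted p 0.0153). Sox4 had 32.8 and 18.3 against 69.5 and 77.0 CPM (1.49, SE 0.266, adjusted p 0.0293) and lost its call without Hivep3-/- replicate 2 (1.37, adjusted p 0.0915) and with at least 5 of the 8 genes (1.27, adjusted p 0.0582). Id3, an inhibitor of E proteins, had 510.0 and 459.5 against 931 and 710.1 CPM and did not pass (0.76, adjusted p 0.0531). Cd24a, the surface marker that defines stage 0, was low in every library, at 6.23 and 1.24 against 3.35 and 10.6 CPM, and 0.913% to 3.63% of thinned G2/M cells had it. Lef1 and Egr2 differed by 0.43 and 1.26 and did not pass.

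Of 8 iNKT1 markers 4 passed, all higher, with a median of 1.88 over the list. Il2rb, the gene of the cytokine receptor chain CD122, had 155 and 158 CPM in C57BL/6 and 518 and 355 CPM in Hivep3-/- (1.47, SE 0.193, adjusted p 0.00947). Ms4a4b had 145 and 206 against 748 and 550.1 CPM (1.89, SE 0.217, adjusted p 0.00600). Ccl5, a chemokine gene of mature iNKT1 cells, had 23.3 and 18.7 against 1436 and 245 CPM, with the Hivep3-/- libraries far apart (5.29, SE 0.766, adjusted p 0.0145). Nkg7, a gene of cytotoxic granules, had 59.3 and 104 against 627 and 212 CPM (2.36, SE 0.476, adjusted p 0.0453), and its call was lost under 5 alternatives, among them without C57BL/6 replicate 1 (1.99, adjusted p 0.0567) and without Hivep3-/- replicate 1 (1.40, adjusted p 0.0548). Tbx21, the T-bet gene that directs the iNKT1 fate, had 25.7 and 34.8 against 70.4 and 15.5 CPM and overlapped.

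Natural killer receptor genes went the same way. Of 16 natural killer receptor and cytotoxic genes 7 passed, all higher, with a median of 2.53 over the list. Fcer1g, the common Fc receptor gamma chain gene, had 33.9 and 47.6 CPM in C57BL/6 and 377 and 351 CPM in Hivep3-/- (3.17, SE 0.196, adjusted p 0.000380), and was found in 4.96%, 7.76%, 54.0% and 46.6% of thinned G2/M cells. Klra1, one of the Ly49 receptor genes on chromosome 6, had 68.9 and 114 against 487 and 442 CPM (2.36, SE 0.235, adjusted p 0.00334). Reads of the near-identical Ly49 genes can be assigned to the wrong member, so Klra1, Klra5 (2.59) and Klra7 (3.68) are uncertain as separate genes. The study had reported Klra1 and Klra5 as higher in Hivep3-/- cells of these libraries, so they are not independent evidence. Klra5 also lost its call without the cells of highest doublet score (2.36, adjusted p 0.0549) and without G2/M cells with 4 or more early S genes (1.55, adjusted p 0.374). Klrb1a, of the NKR-P1 receptor family, had 2.46 and 6.53 against 48.6 and 78.4 CPM (3.98, SE 0.427, adjusted p 0.00435). Klrc1 differed by 2.80 and Cd7 by 2.15, and Klrc1 lost its call under 5 alternatives: DESeq2 (2.73, adjusted p 0.0693), without Hivep3-/- replicate 1 (2.31, adjusted p 0.0709), with at least 3 of the 8 genes (2.39, adjusted p 0.0694), without the cells of highest doublet score (2.67, adjusted p 0.125) and without G2/M cells with 4 or more early S genes (1.75, adjusted p 0.106).

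Cytotoxic effector genes were high in Hivep3-/- replicate 1 alone. Gzma, a granzyme gene, had 21.5 and 36.4 CPM in C57BL/6 and 881 and 49.2 CPM in Hivep3-/- replicates 1 and 2. Gzmb had 17.5 and 43.5 against 435 and 44.7 CPM. Neither passed (4.01, adjusted p 0.104; 2.97, adjusted p 0.142). Klre1, Klrk1 and Ly6c2 had 111, 152 and 452 CPM in Hivep3-/- replicate 1 and 10.6, 17.6 and 82.0 CPM in replicate 2, and did not pass either. Ifng, the gene of the cytokine of iNKT1 cells, had 17.0 and 9.33 against 20.1 and 8.79 CPM.

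Further genes with large differences lay outside these lists. Cx3cr1, the fractalkine receptor gene, had 2.30 and 0.933 against 77.9 and 26.7 CPM (4.76, adjusted p 0.00928), and Htra3, a serine protease gene, had 2.62 and 1.55 against 67.8 and 24.6 CPM (4.27, adjusted p 0.00947). Tnni1, the slow troponin I gene, had 12.8 and 20.2 CPM in C57BL/6 and 149.9 and 171 CPM in Hivep3-/- (3.33, SE 0.233, adjusted p 0.000643). With Ccl5, Klrb1a and Klra7 above, the 10 largest rises were completed by Tyrobp, which pairs with activating killer receptors (4.39), Crtam, an adhesion receptor gene of cytotoxic T cells (4.08), the adaptor gene Lat2 (3.44) and the interleukin 10 receptor gene Il10ra (3.35). Without the cells of highest doublet score Tyrobp (4.86, adjusted p 0.0663) and Ccl5 (5.46, adjusted p 0.0709) missed the threshold with differences no smaller than before, and Crtam lost its call without Hivep3-/- replicate 2 (3.27, adjusted p 0.0589).

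Among the 10 largest falls, Drosha, whose product cuts microRNA precursors in the nucleus, had 333 and 345 CPM in C57BL/6 and 33.5 and 42.9 CPM in Hivep3-/- (-3.12, SE 0.175, adjusted p 0.000306). It lies on chromosome 15 at 12824815 to 12935291. The unconventional myosin gene Myo6 (-4.42), the interferon-induced Oasl2 (-3.01), the organic cation transporter gene Slc22a3 (-2.97) and Rora, which encodes the nuclear receptor RORα (-2.79), also fell. Myo6 lost its call without either Hivep3-/- library (adjusted p 0.0536 and 0.121).

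The genes of survival and homing moved in part. Of 12 Bcl2 family genes tested 2 passed, both lower: the survival genes Bcl2a1b, with 148 and 189.6 against 62.0 and 42.9 CPM (-1.72, adjusted p 0.00894), and Bcl2a1d, with 186 and 243 against 46.1 and 37.6 CPM (-2.38, adjusted p 0.00166). They are near-identical copies, so how their reads were split is uncertain. The study had reported both as decreased in cycling Hivep3-/- cells of these libraries, so they are not independent evidence. Bcl2 itself had 36.1 and 24.9 against 62.8 and 49.6 CPM and did not pass (0.84, adjusted p 0.120), nor did the proapoptotic genes Bax (-0.31) and Bbc3 (0.86). Of 12 homing receptor genes tested, Ccr4 (-1.37, adjusted p 0.00972) and Ccr2 (-1.02, adjusted p 0.0293) were lower and Cd69, whose product holds cells in tissue, was higher (1.40, adjusted p 0.0164). Ccr2 lost its call without C57BL/6 replicate 2 (adjusted p 0.106), without Hivep3-/- replicate 1 (adjusted p 0.0672) or without G2/M cells with 4 or more early S genes (-0.67, adjusted p 0.222), and Cd69 lost its call without Hivep3-/- replicate 2 (1.21, adjusted p 0.0609). In a further list of 12 genes, Cd52 (-1.28, adjusted p 0.00315) and Bcl11b (-1.20, adjusted p 0.0458) were lower besides Drosha, and Hivep3 was higher. The study's text names Cd52, Drosha and Hivep3 from the same libraries, so these are not independent evidence. It does not name Bcl11b. Bcl11b, a factor of T cell commitment, lost its call without C57BL/6 replicate 1 (-0.88, adjusted p 0.291), without Hivep3-/- replicate 1 (adjusted p 0.0985), without Hivep3-/- replicate 2 (adjusted p 0.100), without the cells of highest doublet score (adjusted p 0.0555) and without G2/M cells with 4 or more early S genes (-0.92, adjusted p 0.137).

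The genotype difference in G2/M cells was then set against that in other cells of the same libraries, with an interaction term and library as a block in edgeR. Against early S cells, 8 of 10177 genes passed (0.0786%), and 7 of them, Hist1h2ag, Hist1h2af, Hist1h2bj, Hist1h3b, Lig1, Mki67 and Tk1, belong to DNA replication or proliferation. Tk1, the thymidine kinase gene, had 162, 177, 158 and 206 CPM in G2/M cells and 104, 88.5, 29.3 and 60.0 CPM in early S cells. In the 4 histone genes G2/M levels overlapped between the genotypes, while early S levels were lower in both Hivep3-/- libraries. The early S and G2/M groups were themselves chosen on cell cycle genes, so these 7 are not independent of the choice. Rora, the other one, had 105, 65.3, 12.3 and 12.5 CPM in G2/M and 85.5, 58.1, 27.8 and 25.3 CPM in early S cells. Without C57BL/6 replicate 1 Hist1h2ag alone of the 8 kept its call, and Rora (-1.24, adjusted p 0.274), Tk1 (1.04, adjusted p 0.259) and Hist1h3b (1.55, adjusted p 0.596) were among those that lost it. Over 11 alternatives Rora was called under 2, Tk1 under 6 and Hist1h3b under 5. No gene of the stage 0, early progenitor, iNKT2, iNKT1 or natural killer lists passed against early S cells, which does not show that the differences were equal there.

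Early S cells carried these markers too. At least 3 iNKT2 markers were in 68.2%, 58.1%, 33.8% and 30.7% of thinned early S cells, at least 3 stage 0 markers in 30.9%, 22.9%, 60.4% and 64.7%, and at least 3 iNKT1 markers in 12.9%, 31.2%, 35.7% and 37.6%. Of the cells outside G2/M, early S cells included, thinning kept 2816 of 6730, 1792 of 3430, 3529 of 4508 and 2916 of 3972. C57BL/6 thus lost a larger part of them. The iNKT1 shares of the thinned cells were 25.8%, 59.5%, 75.5% and 66.8%. Before thinning, over all cells outside G2/M, they were 60.6%, 77.4%, 77.5% and 70.8%. These shares were not tested.

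Against all other cells, 266 of 11862 genes passed (2.24%). Of these, 123 were also called by DESeq2 and 124 with at least 3 of the 8 genes. The calls below are those of the main edgeR fit. Of 8 iNKT1 markers 5 passed, all with a larger difference toward Hivep3-/- among G2/M cells than elsewhere: Il2rb (1.16, adjusted p 0.00296), Ms4a4b (1.08, adjusted p 0.000566), Nkg7 (1.77, adjusted p 0.0135), Klrd1 (1.36, adjusted p 0.0369) and Ccl5 (2.53, adjusted p 0.0443). Of the 8 stage 0 markers Ikzf2 (0.84, adjusted p 0.0146), Itm2a (0.88, adjusted p 0.0345) and Sox4 (0.92, adjusted p 0.0163) passed in the same direction. Of 8 iNKT2 markers 2 passed, Icos (-1.50, adjusted p 9.69e-05) and Il4 (-0.84, adjusted p 0.0330), and of 6 early progenitor genes 2 passed, Lmo4 (-1.54, adjusted p 0.000785) and Ccr9 (-2.33, adjusted p 0.0170), all with a larger deficit in G2/M cells. Cd4 (0.09, adjusted p 0.929) and Plac8 (0.24, adjusted p 0.706) did not pass. Of 16 natural killer receptor and cytotoxic genes 4 passed, Fcer1g, Klrc1, Klra9 and Cd7, all toward Hivep3-/-. Cell cycle genes passed too, and all of them toward Hivep3-/-: 11 of the 69 mitosis genes, 4 of 12 replicative histone genes and 2 of 8 early S genes. Among them were Cdk1 (1.22, adjusted p 0.0345), Plk1 (1.28, adjusted p 0.0443), Mki67 (1.70, adjusted p 0.00647), Top2a (1.40, adjusted p 0.0335) and Hist1h1b (2.01, adjusted p 0.0154). These contrasts set G2/M cells chosen on cell cycle genes against all others, so they are not independent of the choice. The iNKT1 shares of all other cells differed between libraries, by amounts that depended on thinning. The part of the mix of marker classes in these differences was not tested.

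**Figure D5:**
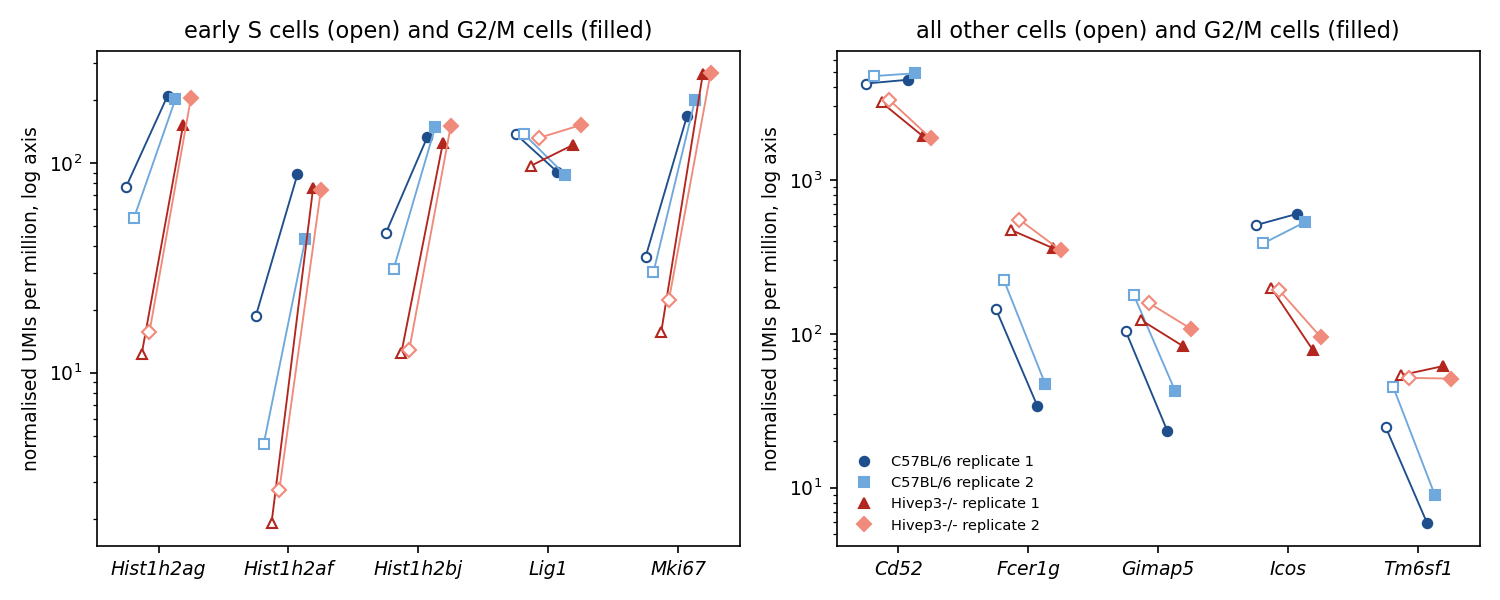
Normalised UMIs per 1000000 UMIs (log axis) of the 5 genes of smallest p in each interaction, in early S or all other cells and in G2/M cells of the same library. On the left the histone genes meet in G2/M cells but are lower in Hivep3-/- early S cells; on the right Fcer1g, Gimap5 and Tm6sf1 are lower in G2/M than in other cells in both C57BL/6 libraries, and the Hivep3-/- lines are flatter.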

How the data were processed

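Single-cell 5' transcript libraries of tetramer-sorted thymic iNKT cells were analysed from the deposited matrices of raw UMI counts per gene and cell, produced by the authors on mm10 with Cell Ranger 3.1.0; Seurat 3.1.4 is named in the submitters' processing notes for later steps. Cells with at least 500 and under 4100 genes, at least 1000 UMIs and under 6% mitochondrial UMIs were kept, after the study's limits. Counts were summed per library over G2/M, early S and all other cells and tested with edgeR 4.0.16 (R 4.3.3; filterByExpr, TMM, quasi-likelihood), genotype alone or with library as a block for interactions; DESeq2 1.42.0 was an alternative. Cells were not used as replicates, and p-values measure the spread between 2 mice per genotype. Scrublet (scanpy 1.11.5) marked 0 to 5 cells per library at its own threshold, which was taken as a failed call, so the cells with the top 5% of scores were left out as an alternative. The tests were checked on simulated counts. The members and gene lists were chosen with earlier results of these data known, so list counts are descriptions beside the share of all genes. Named genes were the 8 rule genes, Hivep3, called list members, with up to 4 others per list, the 10 largest rises and 10 largest falls (called, no overlap, mean of at least 20 CPM in the higher genotype), the 10 highest folds over other cells (at least 50 CPM in G2/M cells of every library) and the 5 genes of smallest p per interaction. Any other gene given with a value was chosen after its values were seen. Gene symbols were matched to RefSeq on GRCm38.p6 for promoters.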

Additional observations from a re-analysis of the deposited data

Results flagged for a closer look

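For 10 genes the genotype difference in G2/M cells differed from that in other cells of the same libraries by the edgeR interaction test with library as a block, with 2 libraries per genotype; the 5 genes of smallest p in each comparison are given, as the log2 difference in G2/M cells minus that in the other cells. Against early S cells they were Hist1h2ag (2.06, SE 0.183, adjusted p 0.000838), Hist1h2af (2.52, SE 0.359, adjusted p 0.0337), Hist1h2bj (1.65, SE 0.236, adjusted p 0.0337), the DNA ligase gene Lig1 (0.87, SE 0.125, adjusted p 0.0337) and Mki67 (1.36, SE 0.200, adjusted p 0.0355). Hist1h2ag had 209, 201, 152 and 205 CPM in G2/M cells and 76.8, 54.4, 12.2 and 15.6 CPM in early S cells. Mki67 had 168, 199, 264 and 268 CPM in G2/M and 35.7, 30.1, 15.6 and 22.3 CPM in early S cells. Of 11 alternatives, Hist1h2ag passed under 11, Hist1h2bj under 9, Mki67 under 8, Lig1 under 7 and Hist1h2af under 6; the last 4 lost their calls without C57BL/6 replicate 1.

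Against all other cells they were Cd52, a small surface glycoprotein gene (-0.85, SE 0.0619, adjusted p 5.63e-05), Fcer1g (1.64, SE 0.129, adjusted p 7.36e-05), the GTPase gene Gimap5 (1.56, SE 0.131, adjusted p 9.69e-05), Icos (-1.50, SE 0.129, adjusted p 9.69e-05) and Tm6sf1 (2.27, SE 0.197, adjusted p 9.69e-05), and all 5 passed under each of 11 alternatives. Cd52 had 4471, 4931, 1916 and 1859.8 CPM in G2/M cells and 4228, 4725, 3186 and 3308 CPM in all other cells. Fcer1g had 33.8, 47.2, 360.2 and 348 CPM against 145, 225, 471 and 553 CPM, and Icos had 602, 532, 78.4 and 95.4 CPM against 508, 388, 199 and 192 CPM. Gimap5 had 23.4, 42.5, 83.2 and 108 CPM against 104, 179.8, 123 and 158 CPM, and Tm6sf1 had 5.89, 8.94, 61.6 and 51.2 CPM against 24.9, 44.9, 53.9 and 51.7 CPM.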

How the results depend on the processing

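The share of cells in G2/M stayed lower in Hivep3-/- under each alternative, by -1.15 to -3.88 percentage points, and by -1.81 to -4.53 with 1 library left out; the share among dividing cells differed by -9.34 to -20.3, and by -11.7 to -22.4 with 1 library left out. No such p can pass a threshold with 2 libraries per genotype. Of 269 genes called between genotypes, the count was 878 with no low-count filter and 703 with no upper gene limit, and 143 (without C57BL/6 replicate 1) to 233 with 1 library left out. The 8 genes differing from early S cells became 5 under RLE scaling, 239 with no low-count filter, 4 with DESeq2, 1 with at least 3 of the 8 genes, 122 with no upper gene limit, 4 without the highest doublet scores, and 5 (without C57BL/6 replicate 1) to 144 (without C57BL/6 replicate 2), 27 without Hivep3-/- replicate 1 and 88 without Hivep3-/- replicate 2, so that count depends on single libraries. The 266 differing from all other cells became 605 with no low-count filter, 124 with DESeq2, 128 with at least 3 of the 8 genes, 497 with no upper gene limit, and 153 (without Hivep3-/- replicate 1) to 482 (without C57BL/6 replicate 2). More genes are tested without the filter and more cells summed without the limit; the cause of the other changes was not tested. Of 49 named genes called, 32 kept their call under each alternative and 17 lost it under 1 or more, and none reversed. The libraries came from different mice, and the labels do not say whether same-numbered libraries shared an experiment. Deviations of same-numbered libraries correlated by 0.108 over 7014 genes and those of crossed numbers by -0.108. With 2 libraries per genotype these values mirror each other by construction, so they cannot decide whether replicate numbers pair the libraries. With the replicate number as a block 387 genes were called, 263 of them among the 269. G2/M cells without early S genes, and no gene limit with thinning, were alternatives chosen after seeing the data.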

Other observations

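Among markers of other cell types, 1 of 8 B cell genes, 5 of 8 genes of double positive thymocytes, 1 of 8 myeloid genes and 0 of 6 erythroid genes had enough UMIs in G2/M cells for the edgeR test between genotypes, and 0 passed. At an unadjusted p under 0.05 there was 1, from the B cell list, and DESeq2 called 0. Of 11 tested genes of the iNKT receptor and T cell identity, 0 passed in edgeR, 2 had an unadjusted p under 0.05 and DESeq2 called 1, the CD3 zeta chain gene Cd247, with a median log2 difference of 0.19.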
